A study of Mus musculus with 2 samples.

Results

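The barcodes described here are interstitial stromal cells of the RAD21L KO testis library, that is, barcodes with transcripts of connective tissue. They were chosen by a rule on the KO library alone. A barcode needed at least 500 detected genes, at least 0.4% of its UMIs (unique molecular identifiers, the tags by which captured transcripts are counted) on Dcn, Col1a1, Col1a2, Col3a1 and Pdgfra, and at least 5 such UMIs. It also needed under 1% of UMIs on 5 smooth muscle genes of peritubular myoid cells (Acta2, Myh11, Tagln, Tpm2 and Myl9) and under 0.3% on 4 Leydig cell genes (Cyp17a1, Insl3, Hsd3b1 and Cyp11a1). The rule chose 669 of 6409 KO barcodes with at least 500 genes, or 10.4% (exact Clopper-Pearson 95% interval 9.70 to 11.2). They are called stromal barcodes below, and the other 5740 KO barcodes with at least 500 genes are the comparison. Of these 5740, 3154 met none of the marker classes used below, so their cell type is not named here.

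The study is about RAD21L, a meiotic cohesin subunit, and the male germline. Its single-cell part profiled whole testes of Rad21l+/+ (WT) and Rad21l-/- (RAD21L KO) mice aged 55 days by droplet capture (10x Chromium) and sequencing on a NovaSeq. Each genotype had 1 library, of 5415 WT and 7118 KO barcodes, or 12533 in all. How the KO allele was made, and the strain, are not given in the sources used here. With 1 library each there are no replicates and no test: every interval below is a 95% interval that covers counting error only. Since the barcodes were chosen on 5 of their own genes, every ratio of stromal to other KO barcodes is a description of the chosen cells and not a test of them.

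The interstitium is the tissue between the seminiferous tubules. It holds Leydig cells, which make testosterone, blood vessels, macrophages and stromal cells that lay down matrix and, in the mouse, include cells able to become Leydig cells. Pdgfra, a receptor for platelet-derived growth factors, marks stromal cells and many Leydig progenitors. Sertoli cells, inside the tubules, secrete the Hedgehog ligand DHH, which is read by interstitial and peritubular cells through the receptor PTCH1 and the GLI factors. Retinoic acid, which germ cells need to begin meiosis, is broken down by enzymes of the CYP26 family.

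The stromal barcodes held 1416548 UMIs, with a median of 2069 per barcode (669 to 5681) and a median of 1235 genes. The other KO barcodes held 26148152 UMIs, with a median of 4031.5. Levels are therefore given as CPM, the counts of a gene summed over a set of barcodes and scaled so that each set has the same total. The KO library as a whole held 28001992 UMIs and the WT library 33096309. Both libraries share 14 barcode sequences, and 0 of the stromal barcodes are among them. Scrublet, which marks likely doublets, marked 152 of the 6409 KO barcodes (2.37%) and 14 of the 669 (2.09%), which were kept. Rad21l had 82 UMIs in the whole WT library and 111 in KO, of which 1 was in a stromal barcode. Which part of the gene the KO deletes is not given here, so this count does not check the label.

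Of the 5 genes that chose the barcodes, decorin (Dcn), a small proteoglycan that binds collagen fibrils, was at 6018 CPM against 89.6 CPM in the other KO barcodes. Pdgfra was at 1544 against 57.6 CPM, Col1a2 at 1289 against 49.1 CPM, Col3a1 at 423 against 17.4 CPM and Col1a1 at 239 against 5.85 CPM. Dcn had a UMI in 99.4% of the chosen barcodes and Col1a1 in 35.3%. The 5 genes together took a median of 0.882% of a barcode's UMIs (quartiles 0.661% and 1.22%, highest 3.90%). The barcode just inside the 0.4% limit had 0.405%, and the one just outside had 0.399%. Among barcodes that met the other limits, 59 lay between 0.2% and 0.4% and 133 between 0.4% and 0.6%. Both counts required at least 5 such UMIs, and in a shallow barcode 5 such UMIs are already past 0.4%. The counts therefore cannot show whether the limit cut through a tail or through the bulk. Of 673 barcodes that met the stromal limits, the Leydig limit alone removed 3 and the myoid limit alone removed 1. The highest Leydig share inside was 0.277% and the lowest kept out was 0.428%. For the myoid genes these values were 0.978% and 1.29%. Of the 669, 334 held no UMI of the 4 Leydig genes.

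The label was checked against marker lists. Over all 14797 genes with at least 50 UMIs over both sets, 4.83% were at least 4-fold higher and 6.81% lower. Of 20 stromal markers that the rule did not use, 18 had at least 50 UMIs over both sets, and 15 of these were at least 4-fold higher in the stromal barcodes. Matrix Gla protein (Mgp), gelsolin (Gsn), the collagen VI chains and Cygb were among them, while Sparc (2197 against 2164 CPM) and Fbln1 (21.9 against 22.9 CPM) were level, Fn1 was lower (12.7 against 48.2 CPM) and Postn had 0 UMIs. Of 12 markers linked to Leydig progenitors, 11 had enough UMIs and 8 were at least 4-fold higher, or 7 without Pdgfra, which the rule used. Tcf21, Nr2f2, Ptch1, Gli1, Ly6a and Igf1 were among these 7, and Thy1 had 0 UMIs. Markers of adventitial fibroblasts, which sheathe vessels, were split. Col15a1, Cd34, Cd248, Gpx3 and Clec3b were at least 4-fold higher, whereas Dpp4 had 0 UMIs, and Pi16 and Dpt had 4 each. All 8 mesothelial markers were at 0.

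The levels of markers of other cell types rest in part on the rule, which capped Leydig and myoid genes. The 12 Leydig markers, 4 of them capped, summed to 1570.0 CPM, against 32093 CPM in the 499 Leydig-marker barcodes. The 14 Sertoli markers summed to 3330 CPM against 21129 CPM in 650 Sertoli-marker barcodes. The 12 macrophage markers summed to 181 CPM against 25334 CPM in 418 myeloid-marker barcodes, and the 12 germ cell markers to 633 CPM against 9074 CPM in 892 germ-marker barcodes. Set against the level over all KO barcodes, these sums were 25.5% for Leydig, 37.8% for Sertoli, 15.1% for macrophage and 27.9% for germ cell markers. None of the 12 Leydig, 14 Sertoli or 12 macrophage markers was at 0, and among the germ cell markers only Gfra1 was. Of 10 lymphocyte markers 6 were at 0, the T and B cell genes Cd3d, Cd3g, Trac, Trbc2, Cd79b and Ms4a1. Pericyte markers, of cells that wrap small vessels, were not low: the 8 summed to 262 CPM against 85.6 CPM in the other KO barcodes (277% of the level over all KO barcodes), 3511 CPM in myoid-marker and 948 CPM in endothelial-marker barcodes. Of the 6 with enough UMIs 3 were at least 4-fold higher, Cspg4 (43.1 CPM, 15.6-fold), Abcc9 (52.2 CPM, 9.11-fold) and Des (148 CPM, 6.84-fold), while Mcam was lower (5 UMIs), Rgs5 had 9 UMIs and Higd1b was at 0. The 10 myoid markers, 5 of them capped, summed to 538 CPM, 95.7% of the level over all KO barcodes, against 39182 CPM in the 89 myoid-marker barcodes, with Actg2 and Synpo2 at 0. The part of these cell types, of free RNA and of doublets in the levels below was not tested.

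Cdh5 and S100b did not follow their lists. Cdh5, the adherens junction cadherin of endothelium, had 209 UMIs in the stromal barcodes (148 CPM, against 10.1 CPM in the other KO barcodes) and was found in 166 of them (24.8%). The other 11 endothelial markers had 26 UMIs together. Cldn5, Tie1, Flt1 and Esam were at 0, while Pecam1 and Vwf had 1 UMI each. That is 0.124 UMIs of the other endothelial markers per Cdh5 UMI, against 6.62 in the 29 endothelial-marker barcodes of the same library. With each barcode thinned to 1000 UMIs, Cdh5 was found in 14.6% of stromal, 82.1% of endothelial-marker, 0.203% of Leydig-marker and 0.481% of germ-marker barcodes. S100b, a calcium-binding protein used as a glial marker, was at 97.4 against 1.91 CPM, while the glial genes Sox10 and Mbp were at 0. Both genes were singled out after their values were seen.

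Of 14797 genes with at least 50 UMIs over both sets, 715 (4.83%) were at least 4-fold higher in the stromal barcodes and 1008 (6.81%) at least 4-fold lower. The rule's own genes account for 5 and 6 of these, and the median gene was at -0.44 on the log2 scale. Genes were ranked by ratio among those with at least 200 UMIs and a UMI in at least 10% of stromal barcodes. Penk, the precursor of the enkephalin opioid peptides, was at 423 CPM against 3.29 CPM, a ratio of 129 (102 to 163). Adamts5, a protease that cuts large proteoglycans, was at 1529.8 against 15.2 CPM, a ratio of 101 (90.3 to 112). Col15a1, a basement membrane collagen, followed at 86.5 (71.9 to 105), and Mfap4, a microfibril glycoprotein, at 77.0 (59.2 to 101).

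Thbd, which encodes thrombomodulin, a surface receptor that restrains clotting, was 74.2-fold higher, and the retinoic acid hydroxylase Cyp26b1 66.8-fold higher (61.7 to 72.5). Ltbp4, which holds latent TGF-beta in the matrix, was 56.7-fold higher. The laminin chain Lama2 was 54.5-fold higher, and Rarres2, which encodes chemerin, 50.2-fold higher. Fgl2 (47.4-fold), Mgp (46.2-fold), the neurotrophin receptor Ntrk2 (43.7-fold), Gsn (43.3-fold) and Igf1 (40.5-fold) came next. Plac8, Fhl2, Chst15, Fmo2, Cyp1b1, Cygb, Id1, Id3, Nrk, Smoc2 and Slit3 are also among the 25 genes with the largest ratio by this ranking. All 25 stayed past 4-fold under every alternative in which they were recomputed.

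Some of the 25 genes were also found in other sets. Penk had 5 UMIs in the Leydig-marker, 2 in the myoid-marker and 0 in the endothelial-marker barcodes. Igf1, which macrophages also make, was at 549 CPM in the myeloid-marker barcodes. Col15a1 was at 188 CPM, Ltbp4 at 316 CPM and Mgp at 523 CPM in the endothelial-marker barcodes, which rest on 29 barcodes and 101277 UMIs. The 89 myoid-marker barcodes held Id3 at 1015 CPM, Fgl2 at 368 CPM, Gsn at 302 CPM and Adamts5 at 202 CPM. Nrk, a kinase of the germinal center family, was at 916 CPM in stromal and 69.3 CPM in Leydig-marker barcodes.

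**Figure D1:**
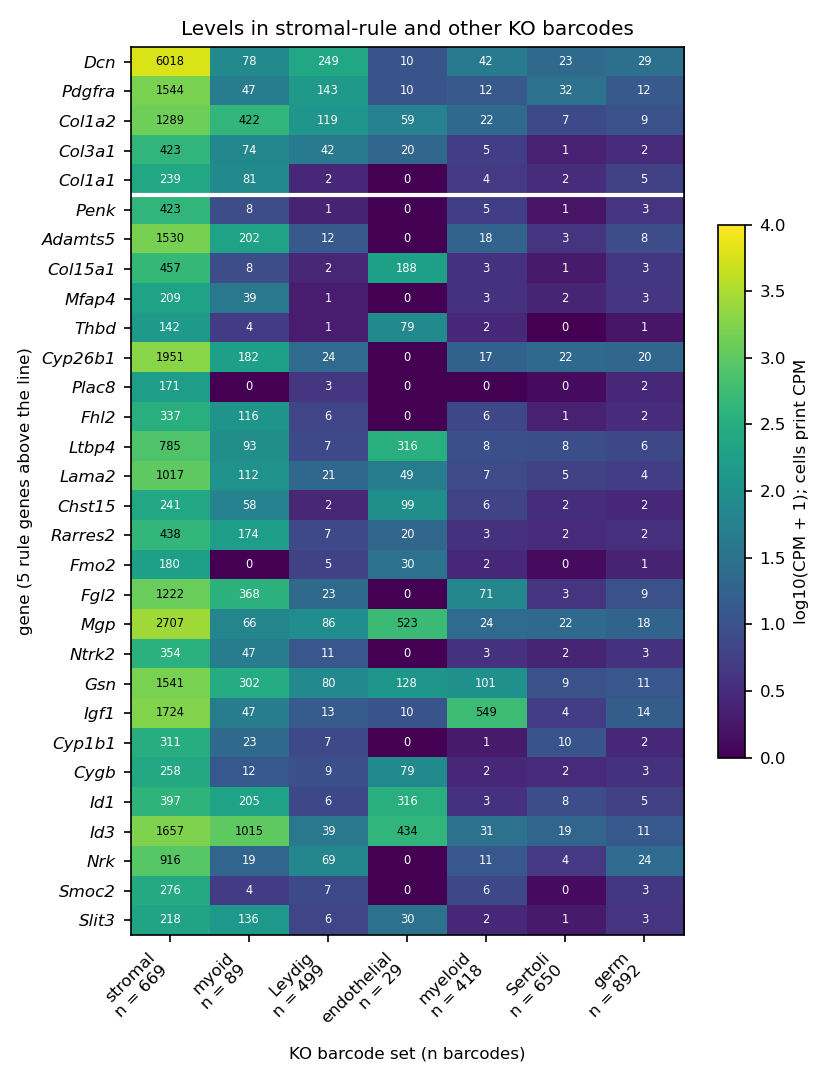
CPM of the 5 rule genes (above the white line) and of the 25 genes with the largest stromal to other ratio, in 7 sets of KO barcodes. Colour is log10(CPM + 1) and each cell prints the CPM. Igf1 has a further high value in myeloid-marker barcodes (549 CPM), and Id3 in myoid-marker barcodes (1015 CPM).

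Within the stromal barcodes these genes differed in how evenly they were spread. Mgp had a UMI in 617 of the 669 barcodes, Igf1 in 583, Adamts5 in 534, Gsn in 510, Cyp26b1 in 493 and Penk in 338. The 10% of barcodes with the most Gsn held 40.4% of its UMIs, whereas for Lamc3 that share was 27.7%. Scaled to 10000 UMIs per barcode, Cyp26b1 had quartiles of 0, 14.5 and 33.3 and a 95th percentile of 62.9. Igf1 had quartiles of 6.34, 14.0 and 24.9. After thinning to 1000 UMIs, which left 615 barcodes and dropped 54, Cyp26b1 was found in 61.8% of stromal barcodes (73.7% before thinning). In barcodes of other types it was found in 1.42% of Leydig-marker, 3.10% of Sertoli-marker, 1.80% of germ-marker and 8.05% of myoid-marker barcodes at that depth. Igf1 was found in 72.5% of stromal and 38.4% of myeloid-marker barcodes, and in 0.364% of Sertoli-marker barcodes.

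Matrix genes, the products for which stroma is known, were higher as a group than in the other KO barcodes together. Against single sets the summed levels were mixed. Elastic fibre and glycoprotein genes were at 10194.5 CPM against 12658 CPM in endothelial-marker barcodes. Proteoglycan genes were at 1193 against 1542 CPM in myoid-marker ones, and collagen processing genes at 981 against 1198 CPM in Leydig-marker ones. Collagens, basement membrane genes (6209 against 6181 CPM in endothelial-marker barcodes) and proteases were highest in stromal barcodes. The list counts here and below stand beside 4.83% of all genes at least 4-fold higher and 6.81% lower. All 8 fibrillar and associated collagens outside the rule that had enough UMIs (of 13 listed) were at least 4-fold higher, with a median log2 ratio of 3.75. Col6a1 was at 268 CPM, 18.8-fold higher, Col6a2 at 91.1 CPM and Col5a1 at 88.9 CPM. Of 19 basement membrane genes 11 were at least 4-fold higher and 1 lower, with a median of 3.01. The laminin chains Lamc3 (1055 CPM, 27.0-fold), Lama2 (1017 CPM) and Lamb1 (688 CPM, 23.3-fold) stood with collagen IV chains Col4a1 (949 CPM, 11.4-fold) and Col4a2 (597 CPM, 9.37-fold). Endothelial-marker barcodes had more Col4a1 (1916 CPM) than stromal ones, and myoid-marker barcodes more Col4a2 (868 CPM). Lama1 (73.4 against 72.4 CPM) was level, and Lama5 had 1 UMI.

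Among 23 genes of elastic fibres and matrix glycoproteins 14 were at least 4-fold higher and 1 lower (median 3.43). Fibrillin 1 (Fbn1, 121 CPM, 18.6-fold), Fbln5 (146 CPM), elastin (Eln, 29.6 CPM, 10.8-fold) and Sparcl1 (2639.5 CPM, 8.35-fold) were among the 14, and Thbs1 was the lower one. Of 10 proteoglycan and hyaluronan genes 5 were higher and 0 lower (median 1.40), led by Bgn (611 CPM, 24.6-fold) and Ogn (335 CPM, 10.8-fold). Myoid-marker barcodes held Ogn at 380 CPM and Sparcl1 at 2732 CPM, close to the stromal levels, and Bgn at 341 CPM. Lum had 21 UMIs in stromal barcodes and 3 in all the others, too few to be counted. Of 14 collagen processing genes 4 were higher and 0 lower (median 0.27). The collagen chaperone Serpinh1 (246 CPM, 20.3-fold), the crosslinker Loxl1 (88.2 CPM, 13.6-fold), Adamts2 and Loxl3 were the 4, while the hydroxylases P4ha1 (98.1 against 101 CPM) and Plod2 (127 against 121 CPM) were level.

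Of 22 matrix proteases and inhibitors 13 were at least 4-fold higher and 0 lower (median 2.39). Besides Adamts5 they included Htra3 (436 CPM, 20.6-fold), the gelatinase Mmp2 (36.0 CPM, 19.6-fold) and Serpinf1 (183 CPM, 15.7-fold). The inhibitors Timp1 (34.6 against 54.0 CPM) and Timp3 (104 against 165 CPM) were not higher, and Timp2 was at 981 against 599 CPM. Of 16 contractile and myofibroblast genes, none of them in the rule, 5 were higher and 1 lower (median 0.48). Cald1 (565 CPM), Des (148 CPM) and Lmod1 (129 CPM) were higher than in the other KO barcodes as a whole, yet below the myoid-marker barcodes, at 4449, 1732 and 1089 CPM. Vim, an intermediate filament of mesenchymal cells, was at 481 against 541 CPM.

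**Figure D2:**
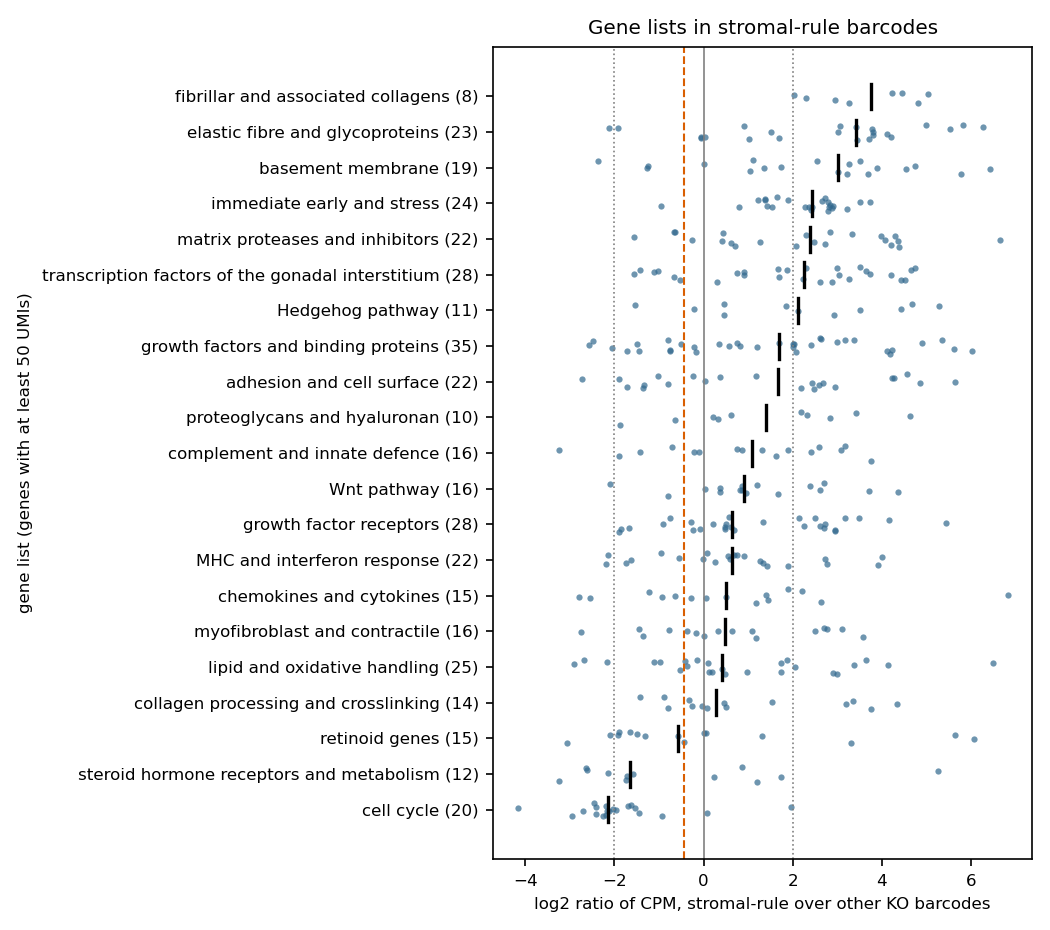
Log2 ratio of CPM, stromal over other KO barcodes, for each gene with at least 50 UMIs in 21 lists (number of such genes in parentheses). Points are genes, black bars list medians, the dashed line the median of all 14797 genes (-0.44) and the dotted lines 4-fold. Collagens have the highest median (3.75) and cell cycle genes the lowest (-2.14).

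Of 35 growth factors and their binding proteins 17 were at least 4-fold higher and 3 lower, with a median log2 ratio of 1.69. Igf1, the insulin-like growth factor, was at 1724 against 42.5 CPM, and the binding protein Igfbp6 at 929.7 against 90.2 CPM. The keratinocyte growth factor Fgf7 (29.6 CPM, 64.6-fold), neuregulin 1 (Nrg1, 52.9 CPM, 49.4-fold) and hepatocyte growth factor (Hgf, 69.9 CPM) had 42, 75 and 99 UMIs. Inhba (109 CPM, 18.7-fold), Bmp4 (64.2 CPM, 18.3-fold) and Igf2 (162 CPM, 17.5-fold) were also higher. Csf1, the macrophage growth factor, was at 251 CPM in stromal barcodes, 145 CPM in Leydig-marker and 8.31 CPM in myeloid-marker barcodes. Kitl, the ligand of the KIT receptor, was at 459.6 CPM against 325 CPM in Sertoli-marker barcodes. Gdnf, which maintains spermatogonial stem cells, was at 4.94 CPM (7 UMIs) against 19.5 CPM in Sertoli-marker barcodes.

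Of 28 growth factor receptors and related genes outside the rule 12 were at least 4-fold higher and 0 lower (median 0.65). Ntrk2 (354 CPM, 43.7-fold), the endothelin receptor Ednra (74.8 CPM, 17.8-fold), Egfr (253 CPM, 11.2-fold), Tgfbr3 (470.2 CPM, 6.54-fold) and Lrp1 (757 CPM, 5.64-fold) were among them. Pdgfrb, the mural cell receptor, was at 40.2 CPM against 202 CPM in myoid-marker barcodes. Tgfbr1, a receptor for TGF-beta, was not higher (22.6 against 72.1 CPM).

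Of 11 Hedgehog pathway genes with enough UMIs 6 were at least 4-fold higher and 0 lower, with a median log2 ratio of 2.12. Gli1, a transcription factor that the pathway itself induces, had 51 UMIs (36.0 CPM, 39.2-fold, 23.7 to 66.6). Ptch1, the receptor and a target of the pathway, was at 273 CPM (7.66-fold, 6.79 to 8.64) and the transducer Smo at 69.2 CPM (4.36-fold). The coreceptors Gas1 (198 CPM, 21.6-fold) and Boc (138 CPM, 11.4-fold) were higher too, while the coreceptor Cdon was at 23.3 against 27.1 CPM. The transcription factors Gli2 (9.88 against 2.75 CPM, 14 UMIs) and Gli3 (16.2 against 11.9 CPM) and the inhibitor Sufu (10.6 against 7.69 CPM, 15 UMIs) did not reach 4-fold. The ligand Dhh was at 136 CPM in Sertoli-marker barcodes and 20.5 CPM in stromal ones. Ptch1 reached 63.8 CPM in Leydig-marker and 73.6 CPM in myoid-marker barcodes, 4.28-fold (3.63 to 5.06) and 3.71-fold (2.34 to 6.23) below the stromal level.

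**Figure D3:**
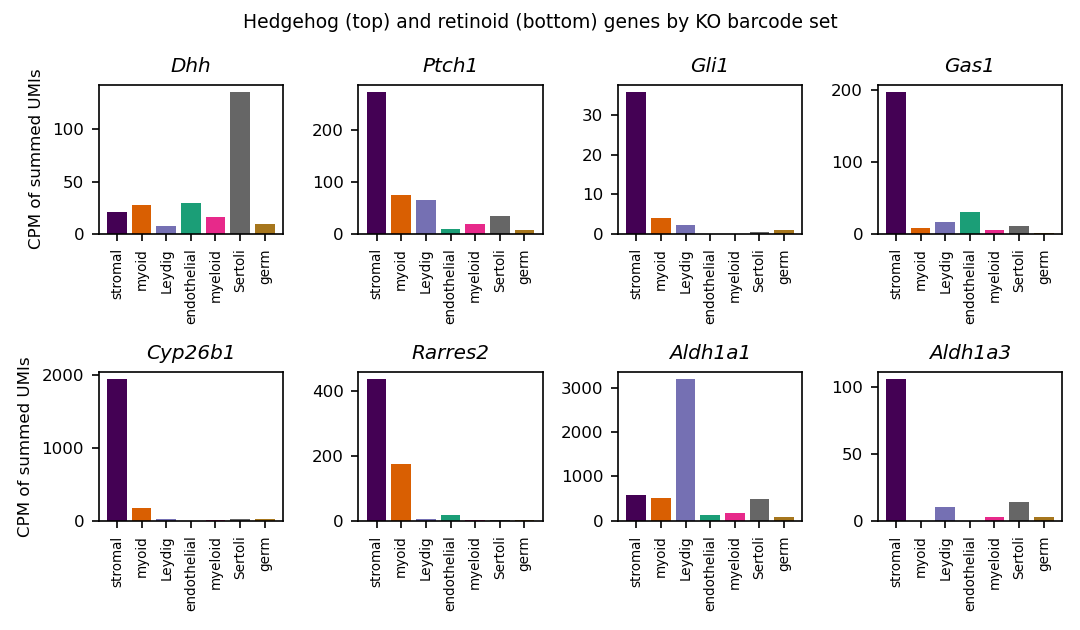
CPM of summed UMIs (bars, each axis from 0) of 4 Hedgehog genes (top) and 4 retinoid genes (bottom) in 7 sets of KO barcodes. Dhh is highest in Sertoli-marker barcodes (136 CPM), Ptch1, Gli1, Gas1, Cyp26b1 and Rarres2 in stromal ones, and Aldh1a1 in Leydig-marker ones (3197 CPM).

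Of 28 transcription factors listed for the gonadal interstitium 15 were at least 4-fold higher and 0 lower (median 2.26). The 15 include Klf4, Nr4a1 and Egr1, which are also counted in the immediate early and stress list below. Osr1 (319 CPM, 25.2-fold), Ebf1 (737 CPM, 22.9-fold), Lhx9 (91.1 CPM, 21.5-fold) and Tcf21 (453 CPM, 18.6-fold) were among those with the largest ratios. Tcf21, a regulator of interstitial progenitors, had a UMI in 341 of the 669 barcodes and was at 81.7 CPM in Leydig-marker barcodes. Nr2f2, which encodes COUP-TFII, was at 443 CPM, with 523 CPM in myoid-marker and 178 CPM in Leydig-marker barcodes. Nr5a1, the steroidogenic regulator, was at 62.8 CPM against 219 CPM in Leydig-marker barcodes. Of 16 Wnt pathway genes 5 were higher and 1 lower (median 0.91), among them the receptors Ror1 (40.9 CPM, 20.6-fold) and Ror2 (24.7 CPM, 13.2-fold) with the ligand Wnt5b (38.1 CPM, 6.56-fold).

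Of 15 retinoid genes 3 were at least 4-fold higher, beside 4.83% of all genes, and 2 lower, with a median log2 ratio of -0.58. Cyp26b1, which breaks down retinoic acid, had 2763 UMIs and was at 1950.5 CPM in stromal, 182 CPM in myoid-marker, 24.5 CPM in Leydig-marker, 22.5 CPM in Sertoli-marker and 16.6 CPM in myeloid-marker barcodes, and at 0 in the 29 endothelial-marker ones. The stromal level was 10.7-fold (8.03 to 14.6) that of the myoid-marker barcodes. Cyp26a1 had 0 UMIs. The 250 bases before the RefSeq start of Cyp26b1 are shown because this gene has the sharpest contrast of the retinoid group. They lie at chr6:84593811-84594060 on the minus strand of GRCm38.p6, a build other than the GRCm39 of the counts, and a TATAAA box is in capitals, its first base 139 before the start.
Cyp26b1 upstream region: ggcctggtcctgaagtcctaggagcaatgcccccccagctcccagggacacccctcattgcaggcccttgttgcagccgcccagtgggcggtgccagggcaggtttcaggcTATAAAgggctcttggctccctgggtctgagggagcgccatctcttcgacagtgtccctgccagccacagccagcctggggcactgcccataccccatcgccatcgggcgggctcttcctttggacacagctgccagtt
TATAAA on either strand was in 12.4% of 32851 RefSeq promoters of the same length and in 2 of the 16 matched among the 25 genes (Cyp26b1 and Fhl2). AGGTCA, the half-site of nuclear receptors, was searched on both strands and was in 14.0% of promoters, and in Fmo2 and Igf1 among the 16. These matches describe letters in the windows and no binding.

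Rarres2 (438 CPM, 50.2-fold) and Aldh1a3 (106 CPM, 9.85-fold) were the other 2 higher genes. Aldh1a1, which makes retinoic acid from retinal, was at 589 CPM in stromal and 3197 CPM in Leydig-marker barcodes. Aldh1a2 had 22 UMIs (15.5 against 58.1 CPM). Stra6, a receptor for retinol transport, and the binding protein Crabp1 were the 2 lower genes. Steroid genes were low: of 12, 1 was at least 4-fold higher and 4 lower (median -1.66). Cyp1b1, a hydroxylase of oestrogens and retinoids, was at 311 against 8.15 CPM. Star, which carries cholesterol into mitochondria, was at 170.1 CPM against 3232 CPM in Leydig-marker barcodes, and Hsd17b3, the last enzyme of testosterone synthesis, at 16.9 against 801 CPM.

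Genes of immune signalling were counted beside the 4.83% of all genes that were at least 4-fold higher. Of 15 chemokine and cytokine genes 3 were higher and 2 lower (median 0.50): Cxcl14 (34.6 CPM, 49 UMIs), Csf1 and Cxcl12 (248 CPM, 4.63-fold, with 741 CPM in endothelial-marker barcodes). Il6 and Il33 had 1 and 3 UMIs. Of 16 complement genes 5 were higher and 1 lower (median 1.08). The proteases C1s1 (278 CPM, 9.08-fold), C1s2, C1ra and C1rb and their inhibitor Serping1 (729 CPM, 8.47-fold) were the 5, while C3 was at 137 against 82.0 CPM. Of 22 genes of antigen presentation and interferon response 4 were higher and 2 lower (median 0.64). The 4 were Ifit1, Ifit3, Ifitm1 and Ifitm3, of which Ifitm3 was at 569 against 38.0 CPM. Ifit1 had a UMI in only 11 stromal barcodes and Ifitm1 in 29. After thinning, Ifitm3 was found in 42.9% of stromal and 64.3% of the 28 endothelial-marker barcodes left. For Ifit1 these shares were 0.976% and 14.3%, and for Ifitm1 1.63% and 0. The class I genes H2-D1 (251 against 254 CPM) and B2m (323 against 221 CPM) differed little from the other KO barcodes.

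Of 25 lipid and oxidative handling genes 7 were higher and 3 lower (median 0.41). Apod was at 65.7 CPM, 90.4-fold higher (93 UMIs), and Gpx3, a secreted glutathione peroxidase, at 154 CPM, 12.5-fold higher. Apoe was at 5199 CPM in stromal and 20116 CPM in myeloid-marker barcodes. Of 22 adhesion and surface genes 11 were higher and 1 lower (median 1.67), with Islr (132 CPM, 50.0-fold), Slit3 (218 CPM), Cd248 (55.1 CPM, 23.6-fold) and the ecto-enzyme Entpd2 (196 CPM, 19.4-fold) at the top. Cd34 was at 297 CPM, with 1076 CPM in endothelial-marker barcodes. Vcam1 was at 711 CPM in stromal against 1427 CPM in Leydig-marker barcodes.

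A list of 24 immediate early and stress genes, which cells switch on within a short time of a stimulus, heat shock genes included, took 4.46% of stromal UMIs against 0.835% in the other KO barcodes. The share was 2.66% in endothelial-marker, 2.56% in myeloid-marker, 2.16% in myoid-marker, 1.51% in Leydig-marker, 0.496% in germ-marker and 0.419% in Sertoli-marker barcodes. By barcode the stromal share ran from 0.0632% to 9.47%, with a median of 4.55% and quartiles of 3.51% and 5.57%. The lower stromal quartile lay above the upper quartile of each of the 6 marker sets, the highest of which was 3.40% in myeloid-marker barcodes. Of the 24 genes 15 were at least 4-fold higher and 0 lower (median 2.43). Jun was at 7102 CPM (6.61-fold), Fos at 6459 CPM (6.98-fold), Egr1 at 5466 CPM (7.42-fold) and Junb at 4875 CPM (7.13-fold). Klf4 (2774 CPM, 13.4-fold), Nr4a1 (881 CPM, 11.4-fold) and Socs3 (1391 CPM, 9.33-fold) had the largest ratios. The heat shock genes Hspa1a and Hspa1b were 3.14-fold and 2.58-fold higher, and Hsp90aa1 was lower (751 against 1452 CPM).

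**Figure D4:**
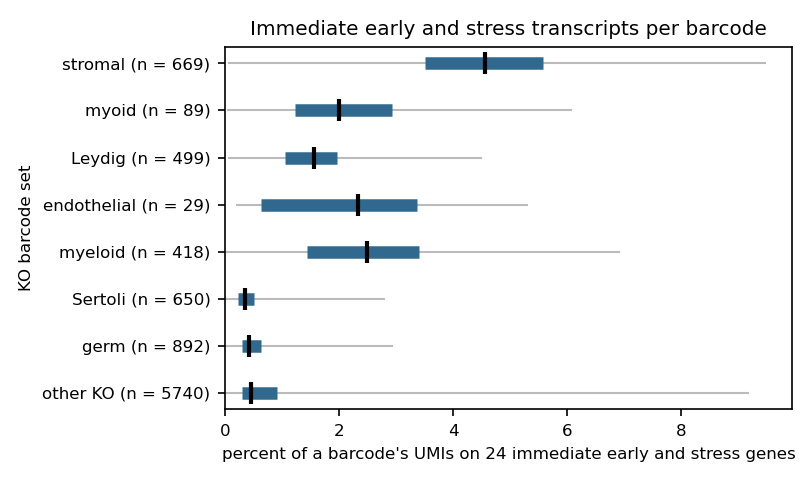
Percent of each barcode's UMIs on 24 immediate early and stress genes, by set of KO barcodes. Ticks are medians, thick bars run between the quartiles and thin lines from the lowest to the highest barcode. The stromal median is 4.55%, and that of the other KO barcodes 0.458%.

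Cell cycle genes were low against the other KO barcodes as a whole, which include germ cells. Of 20 genes 0 were at least 4-fold higher and 12 lower (median -2.14), and they summed to 428 CPM against 3696 CPM in germ-marker barcodes. The sum was 243 CPM in Leydig-marker and 425 CPM in endothelial-marker barcodes, below or level with the stromal one. It was 536 CPM in Sertoli-marker, 562 CPM in myoid-marker and 828 CPM in myeloid-marker barcodes. Mki67 was at 36.7 CPM against 735 CPM in germ-marker barcodes, and Top2a at 71.3 against 1282 CPM. Of the cell cycle inhibitors, Cdkn1c was at 55.8 against 14.3 CPM in the other KO barcodes and had a UMI in 71 stromal barcodes. Cdkn1a was at 10.6 CPM (15 UMIs) in stromal, 41.8 CPM in Leydig-marker and 167 CPM in myoid-marker barcodes. For Cdkn1b these levels were 56.5, 31.3 and 93.0 CPM. Among genes with at least 200 UMIs and a UMI in at least 10% of the other KO barcodes, the lowest ratios belonged to Ccna2 (3 UMIs), Spc24, Mgll and Kcnma1. Grip1, at 16.9 against 449 CPM in Sertoli-marker barcodes, and the linker histone H1f1, at 21.2 against 826 CPM in germ-marker barcodes, were also among the 15 lowest.

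The nearest cell types were set beside the stromal barcodes. Against the 499 Leydig-marker barcodes (median 7409 UMIs), 537 of 9261 genes (5.8%) were at least 4-fold higher in stromal barcodes and 379 (4.09%) lower, with a median log2 ratio of 0.20. Penk (308-fold, 131 to 951), Col15a1 (277-fold), Mfap4 (190.0-fold), Slc38a5 (185-fold), Plac9a (157-fold), Chst15 (146-fold), Thbd (129-fold), Igf1 (128-fold), Adamts5 (126-fold) and Ltbp4 (119-fold) had the largest ratios. Tcf21 (5.55-fold) and Nr2f2 (2.50-fold) separated the sets less. On the Leydig side Lcn2 was at 9553 against 217 CPM, Cstdc2 at 1023 against 21.2 CPM and Hsd17b3 at 801 against 16.9 CPM. Nat8, Pgbd5, Klk1b22, Klk1b27, Trp53i11, Oxtr and Bpifb5 were the other 7 of the 10 genes furthest towards Leydig-marker barcodes.

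Against the 89 myoid-marker barcodes (median 2642 UMIs), 258 of 5829 genes (4.43%) were at least 4-fold higher in stromal barcodes and 209 (3.59%) lower, with a median log2 ratio of 0.10. Nrk (47.3-fold, 20.2 to 146), Mgp (41.1-fold, 25.6 to 70.6), Igf1 (37.1-fold, 21.2 to 71.8) and Tcf21 (16.7-fold, 8.06 to 41.7) were higher. Col15a1, Htra3, Penk and Osr1 had 2 UMIs each in the myoid-marker barcodes, and Cd34 and Smoc2 had 1. Tgfbi had 0 there and was at least 27.3-fold higher, taking 3 UMIs over that set as the floor. On the myoid side stood Filip1l and Pcp4l1 (1217 CPM each against 3.53 CPM), Rcan2, the mural cell gene Rgs5 (973 against 6.35 CPM), Palld, Syne1, Crip1, Map3k20, Mef2c and filamin A (Flna, 2697 against 157 CPM).

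The stromal barcodes were not uniform. Leiden clustering of the 669 barcodes alone gave 3 groups of 341, 207 and 121 barcodes, whose borders moved with the settings. The adjusted Rand index, which is 1 for equal groupings, was 0.510 at a lower resolution, 0.336 at a higher one and 0.348 with another random seed. The groups therefore carry no cell type name. The group of 341 had among its leading genes Irf1 (501 against 157 CPM in the other stromal barcodes), Nfkbia, Atf3, Nfkbiz, Sned1, Pim1 and Klf2. Its macrophage markers summed to 270 against 78.6 CPM, while its Leydig markers (1343 against 1829 CPM) and myoid markers (438 against 652 CPM) were lower. The group of 207 was led by C1qtnf3 (206 against 21.6 CPM), Ccn2, Sct, Myl9, Lipg, Smoc2, Mfap4 and Chrdl1, and held Cyp26b1 at 3622 CPM against 1183 CPM. Leydig markers there summed to 2030 against 1359 CPM and myoid markers, Myl9 included, to 731 against 449 CPM. Macrophage markers (80.7 against 227 CPM) and germ cell markers (514 against 688 CPM) were lower there. Irf1 and the NF-kappa-B regulators Nfkbia and Nfkbiz respond to inflammatory signals, and Ccn2 and Mfap4 belong to the matrix. The group of 121 had the lowest median depth (1730.0 UMIs), 10 of the 14 barcodes that Scrublet marked and 1034 CPM of germ cell markers against 561 CPM in the other stromal barcodes. Hmgb2, D8Ertd738e, Wipf3, Atp5o, Usp3, Mlec and Mphosph8 were among its leading genes.

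Because Cyp26b1 varied widely, the 223 stromal barcodes with the largest share of Cyp26b1 were set beside the 223 with the smallest, a split chosen after its values were seen. Their median depths were 2029 and 2184 UMIs, and Cyp26b1 was at 4536 and 103 CPM. Of 1609 genes with at least 100 UMIs over both, Cyp26b1 included, 26 besides it were at least 2-fold higher in the Cyp26b1-high barcodes. In the same barcodes 14 were at least 2-fold lower. Ptch1 was at 453 against 146 CPM, 3.11-fold higher (2.36 to 4.12). Gli1, which is under that minimum of 100 UMIs and outside the count, had 24 against 9 UMIs, 2.97-fold higher (1.33 to 7.25). Both genes are targets that the Hedgehog pathway induces. The coreceptor Gas1 was at 171 against 261 CPM and the transducer Smo, also under the minimum, at 63.1 against 60.8 CPM.

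The contractile gene Myl9 (4.88-fold), the matrix genes Ccn2 (4.53-fold), Mfap4 (3.95-fold), Smoc2 (3.18-fold), Col4a3 (3.31-fold) and Col4a4 (2.84-fold) were also higher in the Cyp26b1-high barcodes. Myl9 was one of the genes the rule caps. Transferrin (Trf), which is on the Sertoli marker list, was at 45.1 against 279.5 CPM, 0.161-fold. The Leydig marker Hsd3b6 (0.329-fold) and the germ cell marker Sycp1 (0.496-fold) were lower too. Other such markers differed less, such as Clu (0.884-fold) and Cyp17a1 (0.982-fold). The part of free RNA in these differences was not tested. Gpx3 was at 58.6 against 286 CPM, C3 at 74.4 against 203 CPM and Cxcl12 at 155 against 324 CPM. Kitl was at 336 against 606 CPM and Apoe at 3423 against 6779.8 CPM. Jun (7194 against 6863 CPM), Fos (6368 against 6452 CPM) and Nr2f2 (444 against 399 CPM) differed little, while Atf3 (0.549-fold, 0.435 to 0.689), Dusp1 (0.620-fold, 0.529 to 0.725) and Fosb (0.724-fold, 0.669 to 0.783) of the immediate early list were lower in the Cyp26b1-high barcodes. Of the Cyp26b1-high barcodes 141 lay in the cluster of 207 and 61 in that of 341, and of the low ones 9 and 163. Since clusters and split rest on the same counts, this overlap is no independent evidence.

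**Figure D5:**
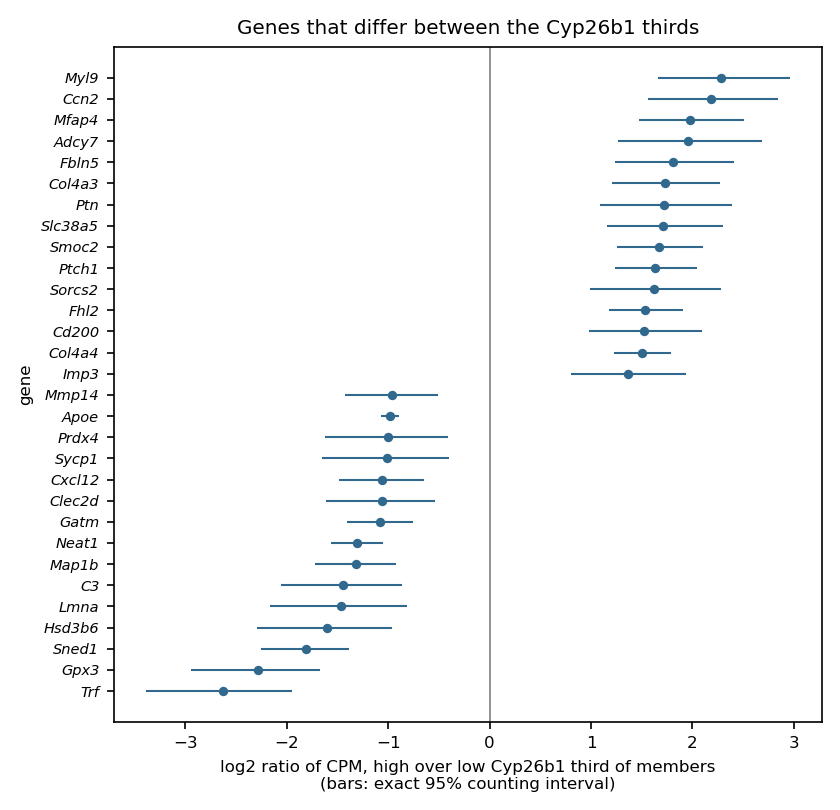
Log2 ratio of CPM between the 223 stromal barcodes with the largest and the 223 with the smallest share of Cyp26b1, for the 15 genes with the largest ratio in each direction. Points are ratios and bars exact 95% counting intervals. Myl9 (4.88-fold) and Trf (0.161-fold) are the extremes, and Ptch1 lies at 3.11-fold.

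The same rule chose 5 of 5407 WT barcodes with at least 500 genes, or 0.0925% (0.0300 to 0.216), with a median of 2803 UMIs. These 5 barcodes held Dcn at 5719 CPM (82 UMIs, 4549 to 7099), Gsn at 2650.3 CPM (38 UMIs, 1876 to 3638), Igf1 at 1325 CPM (19 UMIs, 798 to 2069) and Cyp26b1 at 907 CPM (13 UMIs in 3 barcodes, 483 to 1550.5). With 5 barcodes of 1 library, levels within the stroma could not be compared between genotypes. Nor can genotype and library be told apart as the source of the gap between 10.4% and 0.0925%, and a share of barcodes does not give a number of cells per testis.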

How the data were processed

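Whole-testis cell suspensions of mice, 1 WT and 1 KO library, went through Cell Ranger 6.1.2 according to the header of each matrix. The values deposited by the authors are raw UMI counts per gene and barcode for 41459 genes. The submitters' processing notes also name Seurat 4.3 and GRCm39, and how cells were called is not given in the sources used here. The analysis used Python 3.11.15 with NumPy 2.4.6, SciPy 1.17.1, pandas 2.3.3 and Scanpy 1.11.5, and was tested on simulated data.

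The members, the 21 gene lists and the 16 marker lists were chosen with earlier results of these data known. Counts were summed per set and scaled to CPM. A gene was compared at 50 UMIs or more over both sets and called at 4-fold. Intervals of ratios are exact binomial, of levels exact Poisson and of shares exact Clopper-Pearson. Comparison sets were KO barcodes with at least 5 UMIs and 0.4% of UMIs (1% for Leydig and myoid) on the markers of 1 class.

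Named genes were the rule genes, the 25 largest ratios, the highest levels and ratios of each list, 8 leading genes per cluster and 10 genes per direction against Leydig-marker and myoid-marker barcodes. Those named outside it were chosen after their values were seen, as were all values of the Cyp26b1 split. Scrublet ran with an expected rate of 5%. Alternatives changed the limits of the rule, doublets, UMI minimum, pooling, free RNA, depth, fold and clustering. Some genes that the rule names are not reported here.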

Additional observations from a re-analysis of the deposited data

How the results depend on the processing

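Of 116 named genes past 4-fold, all 116 kept their direction under the 11 alternatives in which they were recomputed. At least 0.2% stromal UMIs left 114 past 4-fold, means of per-barcode CPM left 115 and each of the other 9 left all 116. Counts moved more. Requiring 0.8% stromal UMIs left 388 barcodes, and requiring no UMI of the 4 Leydig genes, an alternative added after the data were seen, left 334 barcodes and 652 genes lower than in the other KO barcodes. With at least 200 UMIs per gene, 381 genes were higher than in the other KO, 164 than in Leydig-marker and 102 than in myoid-marker barcodes, since fewer genes were compared. Taking off 10% of the KO profile as free RNA gave 819 genes higher than in Leydig-marker barcodes, and the cause was not tested. At 2-fold, 1549 genes were higher and 3800 lower than in the other KO barcodes, 1592 higher than in Leydig-marker and 881 higher than in myoid-marker barcodes. Clustering gave 8 groups at resolution 1 and 5 groups with 10 principal components. No paired analysis was possible because each genotype has 1 library, and for the same reason no library could be left out. Depth limits the endothelial-marker set most, with 29 barcodes, and genes with few UMIs in a comparison set have wide intervals, such as Col15a1 against myoid-marker barcodes (16.2 to 488).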

Other observations

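Of the 25 genes with the largest stromal ratio, Penk was the only one with more UMIs in the whole WT library than in the whole KO library. Penk had 2823 UMIs (85.3 CPM) in WT and 698 (24.9 CPM) in KO. Of the KO UMIs 599 were in the 669 stromal barcodes, while the 5 WT barcodes that met the rule held 7 of the WT UMIs. For comparison, Cyp26b1 had 71 UMIs in WT and 3579 in KO, Igf1 had 86 and 3591, and Smoc2 had 446 and 626.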
